A study of Mus musculus with 24 samples.

Results

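The period genes Per1, Per2 and Per3, the cryptochrome genes Cry1 and Cry2, and Ciart, which encodes the repressor also called CHRONO, make up the set described here. They were taken by their symbols in the platform annotation and are 6 of the 18194 genes measured, with 13 of the 34958 probe sets that have a single symbol. Among the 6 genes, Cry1 was the member whose level differed between diets past the test. Its transcript was higher in livers on 0.1% quercetin than in livers on 0.5% or 1.0% quercetin, with no overlap of the mice. Ranges apart and lower than at 0.1% were seen in 0.676% of all genes at 0.5% and in 0.544% at 1.0%. Against control, Cry1 passed at no dose. The difference at 1.0% against 0.1% passed under every alternative setting tried, while the call at 0.5% against 0.1% was lost under several of them. Cry1 had no other probe set, so the settings that change the choice of probe set could not change its values.

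The livers came from 24 male BALB/c mice, an inbred albino strain, obtained at 6 weeks of age with no genetic change named in the labels. All mice ate the purified AIN93G diet for 14 days, plain for the control group and with 0.1%, 0.5% or 1.0% quercetin, a plant flavonol, for the other groups, with 6 mice per group and 3 mice per cage. They were kept on a 12 h light and 12 h dark cycle with the dark hours in the daytime. The sources used here do not give the hour at which livers were taken or the cage of each mouse.

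Period and cryptochrome proteins are the negative arm of the circadian clock. They gather in the cell over the day, enter the nucleus and repress the activator pair BMAL1 (gene Arntl) and CLOCK at E-box sites, including those of their own genes. A second loop of REV-ERB repressors and ROR activators acts on Arntl, Npas2 and Cry1, and another loop of the activators DBP and TEF and the repressor NFIL3 acts at D-box sites, as in the Per genes. In the liver all these transcripts follow the hour of day and the hours of feeding. As the hour of taking the livers is not given, the part of hour or feeding in the differences between diets could not be tested.

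The promoter windows of the members carry different sites of these loops and are shown for the genes whose values the results turn on. Sequences are the 250 bases before each gene start in RefSeq on build GRCm38.p6, which held 6 windows for 5 of the 6 members. They are read 5′ to 3′ on the gene's strand. Both strands were searched for the E-box, spelled CACGTG. The related E′-box was spelled CACGTT, which reads as AACGTG from the opposite strand. The D-box was spelled TTATGNAA. Capitals mark the matches, and no match overlapped another. Cry1 lies on the minus strand, with its window at chr10:85185055-85185304. Per3 lies on the minus strand, with its window at chr4:151044666-151044915. Ciart lies on the minus strand, with its window at chr3:95882229-95882478. Per1 lies on the plus strand, with its upstream window at chr11:69098699-69098948.
Cry1: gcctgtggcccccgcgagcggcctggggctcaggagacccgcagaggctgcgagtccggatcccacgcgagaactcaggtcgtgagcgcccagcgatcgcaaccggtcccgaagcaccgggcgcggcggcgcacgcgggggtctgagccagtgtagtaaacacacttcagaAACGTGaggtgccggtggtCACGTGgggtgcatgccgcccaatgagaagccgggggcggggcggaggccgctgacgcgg
Per3: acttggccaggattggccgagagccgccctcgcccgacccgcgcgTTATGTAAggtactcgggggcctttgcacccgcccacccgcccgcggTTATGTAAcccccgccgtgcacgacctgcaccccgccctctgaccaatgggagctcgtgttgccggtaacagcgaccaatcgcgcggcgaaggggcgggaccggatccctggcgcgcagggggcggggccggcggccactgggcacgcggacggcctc
Ciart: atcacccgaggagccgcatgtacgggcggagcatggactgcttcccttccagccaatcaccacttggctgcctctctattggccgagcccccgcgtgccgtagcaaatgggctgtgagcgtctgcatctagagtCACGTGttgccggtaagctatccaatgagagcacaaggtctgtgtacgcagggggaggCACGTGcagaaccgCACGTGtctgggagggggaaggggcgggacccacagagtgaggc
Per1: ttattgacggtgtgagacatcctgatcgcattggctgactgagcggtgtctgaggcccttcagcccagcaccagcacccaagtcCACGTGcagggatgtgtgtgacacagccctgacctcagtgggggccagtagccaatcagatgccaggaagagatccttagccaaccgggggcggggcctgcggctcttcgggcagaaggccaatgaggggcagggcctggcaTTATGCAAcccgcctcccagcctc

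The Cry1 window held an E-box 60 bases and an E′-box 79 bases before the start. The Ciart window held 3 E-boxes, at 116, 58 and 44 bases before the start. The Per3 window held 2 D-boxes, at 205 and 158 bases, and none of the E-box letters. The upstream Per1 window held an E-box at 166 bases and a D-box at 24 bases, while the letters of these motifs were not in the window of its other start. The Cry2 window held an E′-box at 166 bases. Of 32851 promoter windows of 250 bases in the same table, 6.02% held the E-box, 3.85% the E′-box and 3.07% the D-box. A match describes the letters and was not tested as a binding site.

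RNA was measured on 1 Affymetrix array per mouse and deposited as linear intensities, whose array medians ran from 4.78 to 7.58. Levels below are log2(intensity + 1) after quantile normalization between arrays, a scale that understates changes of dim genes. Without that step the median gene lay 0.11 higher at 0.1%, 0.15 higher at 0.5% and 0.05 higher at 1.0% than in control, on the log2 scale. Differences come from limma over all 24 arrays with their standard error (SE), and p-values are adjusted by the Benjamini-Hochberg method over 18194 genes. The p-values measure the spread between these mice, and the number of arrays limits their precision. The fit treats the mice as independent although they were housed 3 per cage. If cage mates are alike, the p-values are too small, which could not be tested without the cage of each mouse. All 8 hepatocyte markers were measured, and their summed level lay between 15.6 and 15.7 on the log2 scale in every group. The sum comes mostly from genes at the top of the scale, where quantile normalization gives arrays nearly the same values. It could therefore hardly show a change in hepatocyte content. No marker of 10 cell types (hepatocyte, Kupffer, neutrophil, endothelial, stellate, lymphocyte, cholangiocyte, red blood cell, pancreas and adipocyte) passed in any comparison with control or between doses. Neutrophil markers, 6 of 6 measured, had a summed level of 5.50 to 6.29 in control, 5.75 to 6.34 at 0.1%, 5.90 to 8.37 at 0.5% and 5.72 to 7.11 at 1.0%, and their part in the results was not tested. In whole liver, fewer cells with a transcript and less of it per cell cannot be told apart. Arrays of 4 mice stood apart on the first principal component, namely replicates 4 and 6 at 0.5% and replicates 4 and 5 at 1.0%.

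The members' probe sets differed in brightness. Cry2 was brighter than 64.7% of genes, Cry1 than 61.3%, Per2 than 57.7% and Per1 than 48.8%. Per3 and Ciart were dim, brighter than 35.5% and 22.6% of genes. The SE of a difference was largest for Ciart, Per1 and Per3, at 0.58, 0.58 and 0.52 on the log2 scale, against 0.19 for Cry1.

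**Figure D1:**
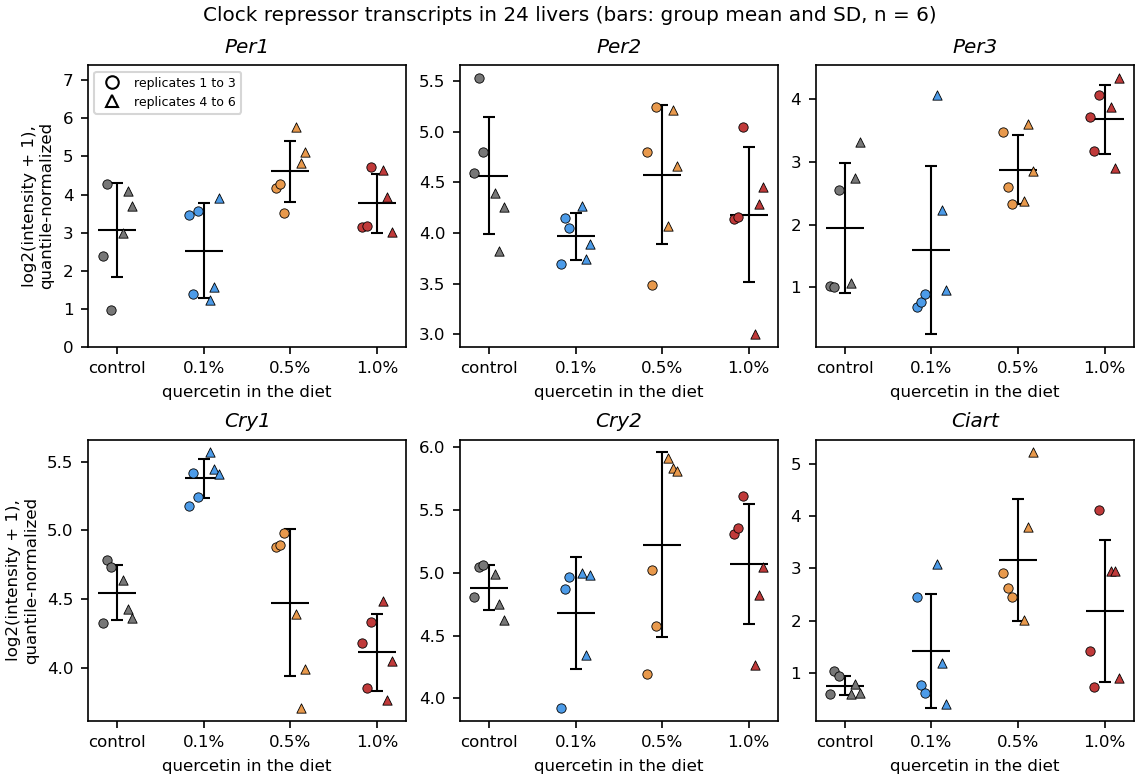
Level of each clock repressor in every liver, as quantile-normalized log2(intensity + 1), by diet from control to 1.0% quercetin (6 mice per diet, bars for mean and SD). Circles are replicates 1 to 3 and triangles replicates 4 to 6. The Cry1 points at 0.1% quercetin, from 5.18 to 5.57, lie above every point of the other diets.

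Against the control diet, none of the 6 members passed at any dose. At 0.1% quercetin 0 of 6 passed in limma (0% of all genes did), and 1 of 6 had an unadjusted p under 0.05, as had 5.11% of all genes. At 0.5% quercetin 0 of 6 passed (0.0165% of genes) and 2 of 6 had an unadjusted p under 0.05 (7.65% of genes). At 1.0% quercetin 0 of 6 passed (0.022% of genes) and 3 of 6 had an unadjusted p under 0.05 (8.92% of genes).

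Between doses, Cry1 passed against the 0.1% diet. At 1.0% against 0.1% quercetin 1 of 6 members passed, as lower (0.253% of all genes passed, and 0.137% as lower), and 3 of 6 had an unadjusted p under 0.05 (9.42% of genes). At 0.5% against 0.1% quercetin 1 of 6 passed, again Cry1 as lower (0.214% of genes passed, and 0.0715% as lower), and 4 of 6 had an unadjusted p under 0.05 (10.1% of genes). Between 1.0% and 0.5% quercetin 0 of 6 passed (0.022% of genes), and 0 had an unadjusted p under 0.05 (6.19% of genes). For any difference among the 4 diets 1 of 6 passed, Cry1 (0.181% of genes), and 4 of 6 had an unadjusted p under 0.05 (9.49% of genes). For a straight line over dose 0 of 6 passed (0.0989% of genes), and 3 of 6 had an unadjusted p under 0.05 (10.9% of genes). The median absolute log2 difference of the members at 1.0% against 0.1% was 1.00, beside 0.20 over all genes. At 1.0% against 0.5%, where no member had an unadjusted p under 0.05, it was 0.60, beside 0.18 over all genes. Comparisons with the same diet share its 6 arrays, so their values are not independent. The members were chosen with earlier results of these data known, so the shares beside all genes are no test of the set.

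Cry1, the cryptochrome whose protein is the stronger repressor of BMAL1 and CLOCK, had its highest level at the lowest dose. Control livers had a lowest, median and highest log2 level of 4.33, 4.54 and 4.79. Livers on 0.1% quercetin had 5.18, 5.41 and 5.57. Those on 0.5% had 3.71, 4.64 and 4.98, and those on 1.0% had 3.77, 4.12 and 4.49. All 6 mice on 0.1% quercetin lay above every mouse on the other diets, while the ranges of the other 3 diets overlapped. How many of all genes share this pattern was not counted. On the deposited linear scale, before normalization, the median intensity was 21.8 in control, 42.6 at 0.1%, 25.0 at 0.5% and 17.4 at 1.0%.

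Cry1 fell at 1.0% against 0.1% quercetin, to 4.11 ± 0.28 at 1.0% against 5.38 ± 0.14 at 0.1% (log2, SD, n = 6 each). The log2 difference was -1.27 (SE 0.19), a fold of 0.415 with a 95% interval of 0.317 to 0.544, with an adjusted p = 0.00302 in limma. All 6 mice at 1.0% lay below the 0.1% mean, and Cry1 ranked 5 among all genes by p. It also fell at 0.5% against 0.1%, to 4.47 ± 0.53 at 0.5% against 5.38 ± 0.14 at 0.1%, by a log2 difference of -0.90 (SE 0.19, fold 0.534, interval 0.408 to 0.699, adjusted p = 0.0449 in limma), a call that passed in 5 of 12 alternative settings and was lost, for example, under the replicate block (adjusted p = 0.0604) and in a fit of only those 2 groups (adjusted p = 0.223). Ranges apart and lower, as for Cry1, were seen in 0.544% of genes at 1.0% against 0.1% and in 0.676% at 0.5% against 0.1%. The F statistic for any difference among diets was 16.3 (adjusted p = 0.0141).

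Against control, Cry1 did not pass at any dose. At 0.1% its log2 difference was 0.83 (fold 1.78, 95% interval 1.36 to 2.33, adjusted p = 0.424), with the groups' ranges apart as in 0.187% of genes in that direction. At 0.5% the difference was -0.07 (adjusted p = 0.953), and at 1.0% it was -0.44 (fold 0.739, interval 0.565 to 0.968, adjusted p = 0.505) with 6 of 6 mice below the control mean. The slope over dose was -0.84 log2 per percent of quercetin (SE 0.23, adjusted p = 0.150).

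The Cry1 fall at 1.0% against 0.1% appeared in both sets of replicates, as it must where the ranges of the diets lie apart. The split therefore adds no support and only describes the values. The means were 4.12 at 1.0% and 5.28 at 0.1% in replicates 1 to 3, and 4.10 at 1.0% and 5.48 at 0.1% in replicates 4 to 6. At 0.5% the sets lay apart from each other, at 4.88 to 4.98 in replicates 1 to 3 and 3.71 to 4.39 in replicates 4 to 6, beside 0.1% means of 5.28 and 5.48 in those sets. The labels do not say what the replicate numbers stand for. The fall at 1.0% against 0.1% passed without each array in turn (adjusted p 0.000909 to 0.0129). The fall at 0.5% against 0.1% passed in 7 of 24 such fits (adjusted p 0.0263 to 0.130). Its call was lost without any 1 of the 6 mice on 0.1%, of control replicates 1, 3, 4, 5 and 6, of 0.5% replicates 4, 5 and 6, or of 1.0% replicates 1, 3 and 6. Without the 4 arrays that stood apart its adjusted p was 0.217 at a difference of -0.76, and without normalization between arrays it was 0.271.

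Cry2, the other cryptochrome repressor, showed no difference past the test. Control livers had a lowest, median and highest log2 level of 4.63, 4.90 and 5.06, and livers on 0.1% had 3.92, 4.92 and 5.00. Livers on 0.5% had 4.20, 5.41 and 5.92, and livers on 1.0% had 4.27, 5.18 and 5.61. The diets overlapped throughout. The largest of its differences between pairs of diets was 0.54 at 0.5% against 0.1% (95% interval -0.04 to 1.13, adjusted p = 0.538), and against control it was 0.34 at 0.5% (interval -0.24 to 0.93, adjusted p = 0.801) and 0.19 at 1.0% (interval -0.40 to 0.77, adjusted p = 0.897). Within the higher doses Cry2 split by replicate set in opposite directions. At 0.5% replicates 4 to 6 had 5.81 to 5.92 and replicates 1 to 3 had 4.20 to 5.02, while at 1.0% replicates 4 to 6 had 4.27 to 5.05 and replicates 1 to 3 had 5.31 to 5.61. These sets were compared after their values were seen, and the split was not tested.

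**Figure D2:**
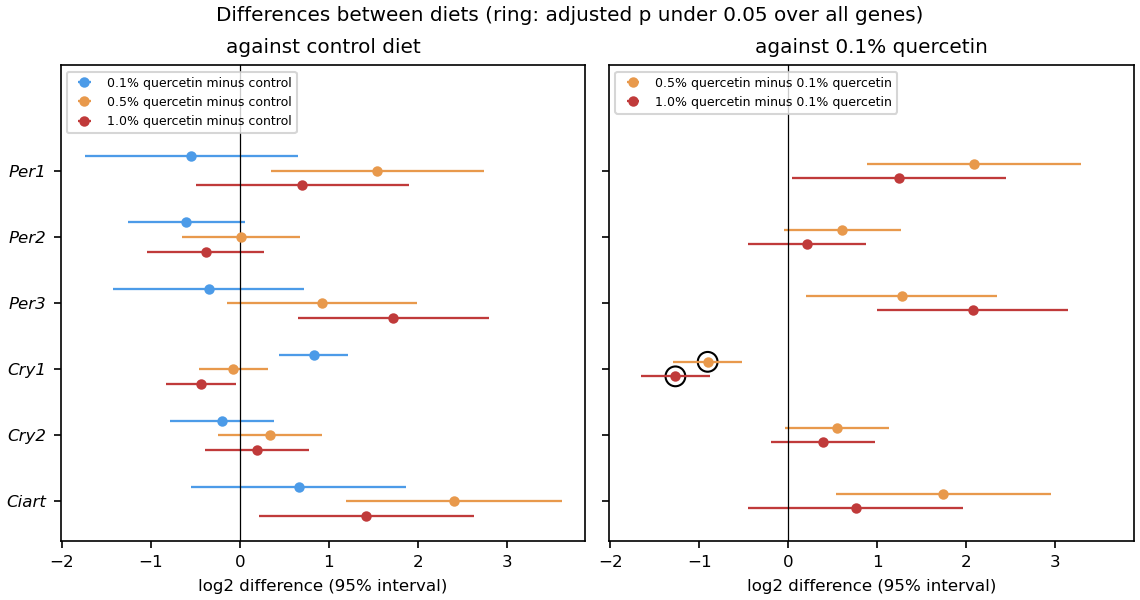
Log2 differences of the members with 95% intervals, against control (left, 3 doses) and against 0.1% quercetin (right, 2 doses), from limma over 24 arrays. Rings mark the differences past the test, which are Cry1 at 1.0% (-1.27) and at 0.5% (-0.90) against 0.1%.

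Per1, a period gene that is also induced quickly by hormones and feeding, had its highest mean at 0.5% without passing. Its lowest, median and highest log2 levels were 0.97, 3.34 and 4.27 in control and 1.22, 2.52 and 3.91 at 0.1%. They were 3.51, 4.55 and 5.78 at 0.5% and 3.01, 3.55 and 4.72 at 1.0%. Mice on the same diet spread widely, and all pairs of diets overlapped. At 0.5% replicates 4 to 6 had 4.82 to 5.78 and replicates 1 to 3 had 3.51 to 4.27, a split that was not tested. On the deposited linear scale the lowest Per1 intensity was 1.14 in control and 1.32 at 0.1%, near the bottom of the scale. The log2 difference was 2.09 at 0.5% against 0.1% (95% interval 0.89 to 3.29, adjusted p = 0.175), 1.55 at 0.5% against control (interval 0.35 to 2.75, adjusted p = 0.563) and 1.25 at 1.0% against 0.1% (adjusted p = 0.511). In each of these 3 comparisons 6 of 6 mice on the higher dose lay above the mean of the other diet.

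Per2, a period gene that the mouse clock needs to keep its rhythm, showed no difference past the test. Its lowest, median and highest log2 levels were 3.83, 4.49 and 5.53 in control and 3.70, 3.97 and 4.27 at 0.1%. They were 3.48, 4.73 and 5.24 at 0.5% and 3.01, 4.23 and 5.05 at 1.0%. No comparison of Per2 had an unadjusted p under 0.05. The difference at 0.1% against control was -0.60 (95% interval -1.26 to 0.06, adjusted p = 0.993), with 6 of 6 mice below the control mean and overlapping ranges. At 1.0% against control it was -0.38 (interval -1.05 to 0.28, adjusted p = 0.782). Its other 2 probe sets gave 0.21 and -0.58 in that comparison.

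Per3, a period gene whose loss leaves the mouse clock running, had its highest levels at 1.0% quercetin. Its lowest, median and highest log2 levels were 1.01, 1.81 and 3.31 in control and 0.68, 0.92 and 4.08 at 0.1%. They were 2.32, 2.73 and 3.60 at 0.5% and 2.90, 3.79 and 4.34 at 1.0%. All 6 mice at 1.0% lay above the control mean, though the ranges overlapped. On the deposited linear scale the median intensity was 3.17 in control, 0.925 at 0.1% and 13.6 at 1.0%. The 0.1% value lies near the bottom of the scale, as do control replicates 1, 2 and 4 at 1.12, 0.760 and 0.955. This leaves the size of differences from either diet uncertain. The log2 difference was 2.08 at 1.0% against 0.1% (95% interval 1.00 to 3.15, adjusted p = 0.104) and 1.73 at 1.0% against control (interval 0.65 to 2.80, adjusted p = 0.365). The slope was 1.99 log2 per percent of quercetin (SE 0.46, adjusted p = 0.0724). Replicate 4 of the 0.1% group held the highest Per3 level of that diet. Without it the difference at 1.0% against 0.1% was 2.57 (adjusted p = 0.00944 in limma) and the slope had an adjusted p = 0.0407. Only this 1 of 24 arrays took either result past the test when left out. Over all such fits the adjusted p reached 0.235 for the difference and 0.163 for the slope. An outlier check within diets flagged 0 of 24 groups, so the array was kept.

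The 6 probe sets of Per3 did not move together. Against control at 1.0%, beside 1.73 for the brightest, the others gave 0.07, 0.29, 0.78, 1.35 (unadjusted p = 0.0164) and -1.11 (unadjusted p = 0.0378), in falling order of brightness. Their correlation with the brightest over 24 arrays ran from -0.35 to 0.32. The brightest had a mean log2 level of 2.53 and the next 2.50, so the choice of probe set decides the Per3 value. With the mean of all 6 probe sets the difference at 1.0% against control was 0.52 (adjusted p = 0.495), and with a pseudocount of 16, a scale on which dim values move less, it was 0.53 (adjusted p = 0.208).

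**Figure D3:**
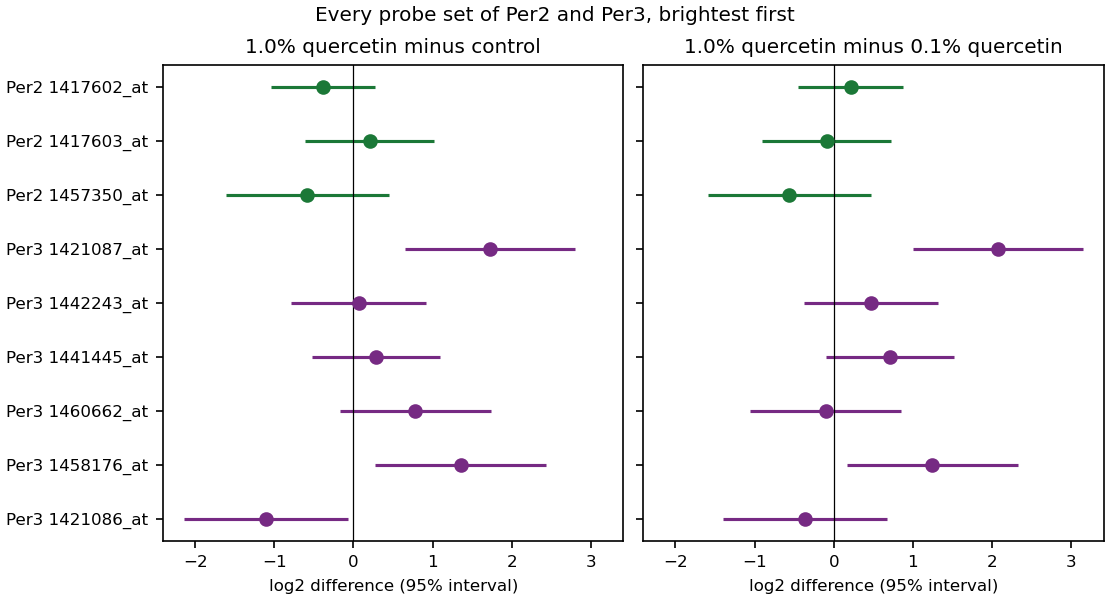
Log2 differences with 95% intervals for all 3 probe sets of Per2 and all 6 of Per3, brightest at the top within each gene, at 1.0% quercetin against control (left) and against 0.1% quercetin (right). The Per3 probe sets run from -1.11 to 1.73 against control.

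Ciart, whose protein represses BMAL1 and CLOCK alongside the PER and CRY proteins, had its lowest mean and median on the control diet. Its lowest, median and highest log2 levels were 0.59, 0.70 and 1.03 in control and 0.41, 0.98 and 3.08 at 0.1%. They were 2.02, 2.76 and 5.22 at 0.5% and 0.74, 2.18 and 4.11 at 1.0%. All mice at 0.5% lay above all control mice, a pattern seen as higher in 0.192% of genes. The log2 difference against control was 0.66 at 0.1% (adjusted p = 0.997), 2.41 at 0.5% (SE 0.58, 95% interval 1.19 to 3.62, adjusted p = 0.291) and 1.42 at 1.0% (interval 0.21 to 2.63, adjusted p = 0.481). None of these passed. In control the median deposited intensity was 0.594 on the linear scale, close to 0.

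The other genes of the clock were read from a list of 59, of which 53 were measured. None passed against control at any dose in limma (with an unadjusted p under 0.05, there were 10 of 53 at 0.1%, 12 at 0.5% and 16 at 1.0%, beside 5.11%, 7.65% and 8.92% of all genes). At 1.0% against 0.1% quercetin 3 rose and 1 fell, and the same 4 genes passed in the same directions at 0.5% against 0.1%, beside 0.253% and 0.214% of all genes passing. The median absolute log2 difference of the 53 genes was 0.34 at 1.0% against 0.1%, beside 0.20 over all genes. These counts describe the list. It was chosen with earlier results of these data known, so its excess over all genes may be partly built in and is no test.

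The genes that rose encode a REV-ERB repressor and 2 activators that bind the D-box. Dbp averaged 8.47 at 1.0% and 4.50 at 0.1%, a log2 difference of 3.96 (adjusted p = 0.00302), and Tef averaged 7.34 and 6.21 on those diets, a difference of 1.13 (adjusted p = 0.00302). Nr1d2, which encodes REV-ERB beta, averaged 8.51 at 1.0% and 7.44 at 0.1%, a difference of 1.06 (adjusted p = 0.00599). At 0.5% against 0.1% the differences were 3.06 for Dbp, 0.89 for Tef and 0.89 for Nr1d2 (adjusted p = 0.0303 for each). Lonrf3, a RING-finger protein gene, fell, with -1.43 at 1.0% (adjusted p = 0.000632) and -0.89 at 0.5% (adjusted p = 0.0310) against 0.1%.

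The activators and the remaining REV-ERB and ROR genes did not pass. Arntl differed by -1.21 at 1.0% and -0.84 at 0.5% against control, and by -1.56 at 1.0% against 0.1% (adjusted p = 0.0618). Npas2, a partner of BMAL1 that can stand in for CLOCK, differed by -0.82 at 1.0% and -0.74 at 0.5% against control and by -1.68 at 1.0% against 0.1% (adjusted p = 0.119). Clock differed by -0.42 at 1.0% and -0.22 at 0.5% against control, and Arntl2 by 0.91 and 0.47. Nr1d1, which encodes REV-ERB alpha, differed by 0.06 at 1.0% and -0.19 at 0.5% against control and by 0.89 at 1.0% against 0.1% (adjusted p = 0.0899). Rora differed by -0.32 at 1.0% and 0.03 at 0.5% against control.

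Genes that act on the PER and CRY proteins did not pass either. None of 13 kinase and ligase genes and none of 7 partner genes passed in any comparison, and their median absolute log2 differences at 1.0% against 0.1% were 0.08 and 0.17, beside 0.20 over all genes. Among them Csnk1d, a casein kinase that phosphorylates PER proteins, differed by 0.01, Prkaa1, the AMPK subunit that acts on CRY1, by 0.20 and Usp2, a deubiquitinase, by 1.30 (adjusted p = 0.460) in that comparison. Usp2 differed by more against control, by 2.30 at 1.0% (adjusted p = 0.263) and 1.27 at 0.5% (adjusted p = 0.610). The partners Hnf4a, Sfpq and Tipin differed by 0.49, 0.17 and -0.15. Of 7 genes of the glucocorticoid and cAMP inputs to Per1 and Per2, among them targets and dampers of those inputs, none passed. Fkbp5, a glucocorticoid-induced gene, differed by 1.62 at 1.0% and 1.48 at 0.5% against control (adjusted p = 0.365 and 0.555), and Creb1, the cAMP-responsive activator, by -0.37 at 1.0% (adjusted p = 0.360). Sik1, a kinase that damps the cAMP input, differed by 1.57 at 0.1%, 1.42 at 0.5% and 0.75 at 1.0% against control (adjusted p = 0.878, 0.527 and 0.693). Of the other clock outputs, Coq10b differed by 0.85 and Mt1, a metallothionein gene, by 4.30 at 1.0% against 0.1% (adjusted p = 0.218 and 0.153). Bhlhe40, another E-box repressor, differed by 0.79 at 1.0% against 0.1% (adjusted p = 0.0867), and Nfil3 by -0.83 (adjusted p = 0.0781).

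**Figure D4:**
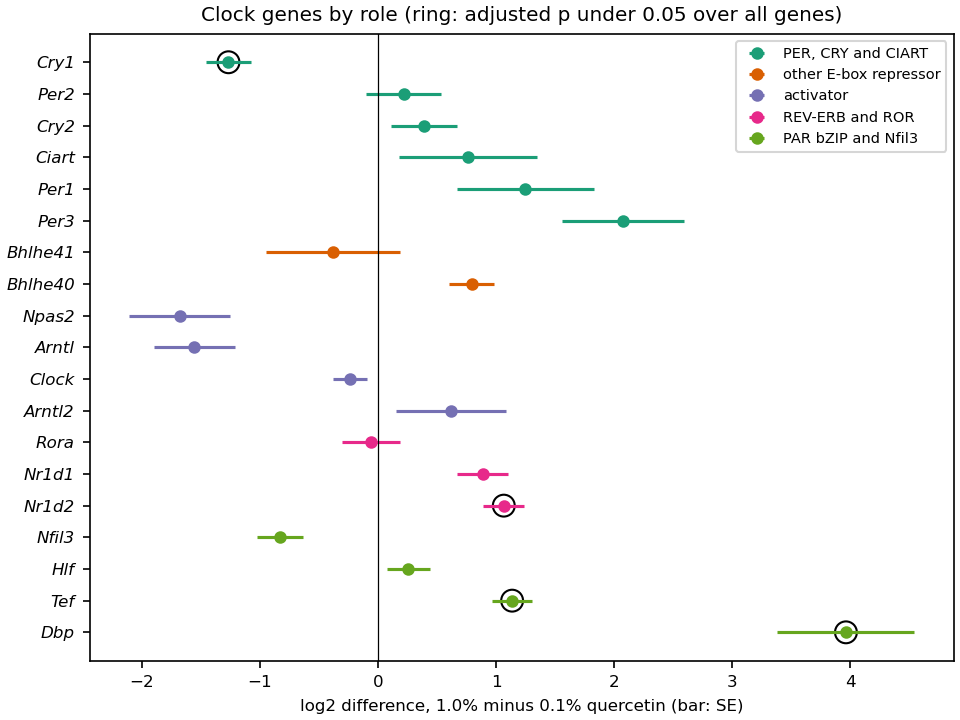
Log2 differences at 1.0% minus 0.1% quercetin with their SE for the members and 13 clock genes by role. Rings mark adjusted p under 0.05, which Cry1 passed as lower and Nr1d2, Tef and Dbp as higher.

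Within diets, no pair of members was found to move together. Noise in dim genes such as Per3 and Ciart could hide a relation. Over 24 livers with the diet means removed, 0 of 15 pairs of members passed a permutation test in diets (adjusted over the 15 pairs), and 0 had an unadjusted p under 0.05. Pearson's r ran from -0.451 for Cry1 with Cry2 (permutation p = 0.127) to 0.321 for Per3 with Ciart (permutation p = 0.109). The Cry1 and Cry2 value was 0.381 within replicates 1 to 3 and -0.198 within replicates 4 to 6, so the sets differed in sign.

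Of 36 relations of the members with Arntl, Clock, Npas2, Nr1d1, Nr1d2 and Dbp, 0 passed after adjustment and 8 had an unadjusted p under 0.05. Per3 with Nr1d2 had Pearson's r = 0.592 and Spearman's rho = 0.457 (permutation p = 0.0103 and 0.0318, adjusted p of r = 0.156). Without the 2 livers farthest on Per3 r was 0.355, and it was 0.0866 within replicates 1 to 3 and 0.631 within replicates 4 to 6. Sets of 12 livers cannot settle whether the relation holds in both. Among the 8, Per2 with Nr1d2 had r = 0.446 (permutation p = 0.0171, adjusted p = 0.156), with 0.536 in replicates 1 to 3 and 0.780 in replicates 4 to 6. Per3 with Dbp had r = 0.522 (permutation p = 0.0169, adjusted p = 0.156), with -0.182 and 0.660 in those sets.

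Over all 24 livers with diet differences kept, the genes most like each member were picked by Pearson's r among the genes at or above the median level. Cry1 was most like Lonrf3 (r = 0.857, Spearman's rho = 0.863), Paxx, a gene of DNA end joining (r = 0.790), and Tuba4a, a tubulin gene (r = 0.782). Per3 was most like Nr1d2 (r = 0.762), Aox1, an aldehyde oxidase gene (r = 0.759), and Gm19950 (r = 0.741). Per1 was most like the AP-1 gene Junb (r = 0.756), the cytokine signalling inhibitor Socs3 (r = 0.717) and Saa4 (r = 0.699). Ciart was most like Saa4 (r = 0.738), Fam47e (r = 0.737) and Slc33a1 (r = 0.730). Per2 was most like Ermp1 (r = 0.698), Tvp23b (r = 0.691) and Cyp4a12a (r = 0.661). Cry2 was most like Brwd1 (r = 0.703), Ppat (r = 0.677) and Fgf1 (r = 0.675). These values share the diets and the arrays and are descriptions. With the diet means removed, r between Cry1 and Lonrf3 was 0.468.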

How the data were processed

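Liver RNA of 24 mice in 4 diet groups was measured with 1 array each. The arrays were Affymetrix mouse arrays that took biotin-labelled cRNA from total RNA, per the labels' protocols. A single table was deposited, with a linear intensity for each of 45101 probe sets. How these intensities were extracted, corrected and summarised is not given in the sources used here. Probe sets with 1 symbol in the platform annotation were used (34958), and 932 with several symbols and 9211 not listed were left out. Columns of samples outside the series numbered 0.

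From the deposited intensity, log2(value + 1) was quantile-normalized, and each of 18194 genes was represented by its brightest probe set over 24 arrays. limma 3.58.1 in R 4.3.3 was fitted with eBayes over all diets, with two-sided tests and Benjamini-Hochberg adjustment at 0.05. Correlations used 100000 permutations in Python 3.11.15. The fit was checked on simulated arrays before use. The 6 members, the clock list and the tests were chosen with earlier results of these data known. Named genes are the 6 members with every probe set, the 3 genes most like each, the activators and REV-ERB and ROR genes, and up to 3 genes of each other class with the smallest p for any difference. Alternatives were other normalizations, a pseudocount of 16, other ways to choose a probe set, a filter on dim genes, eBayes options, array weights, fits with 2 groups, the replicate number or replicate set as a term, and each array left out. Leaving out the 4 arrays that stood apart was added after the data were seen.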

Additional observations from a re-analysis of the deposited data

How the results depend on the processing

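No member passed against control, or at 1.0% against 0.5%, under any of the 12 alternatives or with any of 24 arrays left out. At 1.0% against 0.1%, Cry1 passed under all 12 alternatives (log2 difference -1.27 to -0.81, adjusted p 0.000375 to 0.0469), and the count of members passing was 2, with Per3 added (adjusted p = 0.0495), under the intensity trend with a robust prior and 1 to 2 with an array left out (2 without replicate 4 of the 0.1% group). At 0.5% against 0.1%, the count fell to 0 without normalization, with arrays centred on their medians (Cry1 adjusted p = 0.115), with the mean of probe sets (0.0608), with the probe set of largest variance (0.114), in a fit of only those 2 groups (0.223), under the replicate block (0.0604) and without the 4 arrays that stood apart, and was 0 to 1 with an array left out. The Cry1 difference stayed at -0.90 with both changes of probe set, in the fit of 2 groups and under the replicate block. The same -0.90 held where a control or 1.0% array was left out. In these settings the test changed and the Cry1 difference did not. The cause of the other losses was not tested. For any difference the count was 0 without normalization and 1 to 2 with an array left out (2 without the same replicate). For the slope it was 1, Per3, with a pseudocount of 16 (adjusted p = 0.0384), with the trend and robust prior (0.0357) and with the replicate sets as a term (0.0413), and 0 to 1 with an array left out (1 without the same replicate). The filter on dim genes left no value for Per1, Per3 and Ciart.

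Over all genes, the replicate numbers showed no pairing of the mice. In 36 pairs of same-numbered arrays, deviations from the diet means correlated at -0.06 to 0.11. Of 24 arrays, 4 correlated best with their own number. A pairing that touches few genes could not be seen in this way. With the number as a block, Cry1 at 1.0% against 0.1% still passed, and the counts of all genes passing at 0.5% against 0.1% and at 0.5% against control were 21 and 0, beside 39 and 3. Over the alternatives, all genes passing numbered 6 to 124 at 1.0% against 0.1% (46 in the text's fit), 4 to 100 at 0.5% against 0.1% (39), 4 to 104 for any difference (33), 0 to 129 for the slope (18), 0 to 7 at 1.0% against control (4), 0 to 7 at 0.5% against control (3) and 0 to 5 at 1.0% against 0.5% (4). Per1, Per3 and Ciart lay below the median brightness of genes, which leaves the size of their changes uncertain.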
